A study of Mus musculus with 6 samples.

Results

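This section describes 10 of the 31053 genes counted in immune cells sorted from mouse brains bearing human glioma. They comprise the long noncoding RNAs Malat1, Neat1, Gm26825 and Gm31243, and the transcripts of Hnrnph1, Nol4l, Ddx5, Rsrp1, Srsf5 and Ccnt2. They were chosen by symbol because their levels differed with the depth and the mitochondrial share of microglial barcodes in earlier work on these counts, so their levels across those strata are given as a description. The question was whether some microglial barcodes held mostly RNA of the nucleus.

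SCID mice, which lack T and B lymphocytes, received 50000 cells of the human glioma line U87 in the brain, carrying either IL-33 (3 mice) or the empty vector pcDNA 3.1 (3 mice). Animals with IL-33 tumors were taken at 3 weeks and those with pcDNA tumors at 6 weeks, and the labels give an age range of 6-8 weeks for every mouse. CD45+ cells of the tumor-bearing right hemisphere were enriched on a percoll gradient, sorted by flow cytometry and loaded on the 10× Chromium platform, which reads the 3′ end of each transcript and counts unique molecular identifiers (UMIs). The 6 libraries appear in 1 matrix under barcode suffixes 1 to 6. Neither the sample labels nor the barcode names tie a suffix to a mouse, and none was assigned here, so all values are over 1 pooled sample and IL-33 and pcDNA tumors were not compared. Whether differences between suffixes follow the tumor type was not tested.

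A barcode was called microglial when over 3% of its UMIs fell on Cst3, C1qa, C1qb, C1qc, P2ry12 and Tmem119. The paper also describes bone-marrow-derived macrophages among these cells, some with low levels of microglial genes. The limit was not set to part them from microglia, so barcodes called microglial may include such macrophages. Of 39508 barcodes with over 200 and at most 2500 genes, 38258 (96.8%) met this limit. P2ry12 or Tmem119 had a UMI in 97.2% of these and in 32% of the other 1250, at median depths of 2404.5 and 1628 UMIs. Both genes belong to the limit itself, so nothing is read from this difference. The libraries held 2879 to 10217 barcodes and 9745192 to 24393841 UMIs each. Of all 40411 deposited barcodes, 14722 had a sequence found under more than 1 suffix (3890 such sequences). How this arose was not tested, so agreement over suffixes is not agreement over independent repeats.

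In living cells Malat1 stays in nuclear speckles, the domains where splicing factors gather, and Neat1 forms the core of paraspeckles. Srsf5 is a serine/arginine-rich splicing factor, Rsrp1 carries an arginine/serine-rich region, Hnrnph1 binds G-rich RNA and guides splice site choice, and Ddx5 is an RNA helicase that works in transcription and splicing. Ccnt2 encodes cyclin T2, a subunit of the kinase that releases paused RNA polymerase II. Messenger RNAs of ribosomal proteins, by contrast, are spread through the cytoplasm, and transcripts of the mitochondrial genome stay in mitochondria. The functions of Gm26825, Gm31243 and Nol4l are less settled.

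On GRCm38, Malat1 (ENSMUSG00000092341) lies at chr19:5795690-5802672 and Neat1 (ENSMUSG00000092274) at chr19:5824708-5845478, both on the minus strand. Gm26825 (ENSMUSG00000097554) is a lincRNA at chr5:5781530-5783636, and Gm31243 (ENSMUSG00000104710) is an antisense gene at chr3:135904344-136167184 that overlaps Bank1 on the opposite strand. Hnrnph1 lies at chr11:50376990-50386528, Rsrp1 at chr4:134923592-134927671, Srsf5 at chr12:80945504-80950507 and Ccnt2 at chr1:127774164-127808061 on the plus strand, and Nol4l at chr2:153407462-153529971 and Ddx5 at chr11:106780355-106789185 on the minus strand. Malat1, Gm26825, Gm31243 and Nol4l have annotated genes on the other strand. The paper's sequencing metrics list antisense reads apart from reads mapped to the transcriptome, but how strand entered the counts is not stated there. Whether UMIs of such pairs are separable was not tested.

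The sequences that follow were taken from the GENCODE M21 transcripts of GRCm38 and are shown because this assay captures RNA by its adenines. Malat1 and the long Neat1 transcript are known to end in a triple helix of U-rich and A-rich motifs in place of a poly(A) tail. The capitals mark the 3 stretches of 10 or more bases, of 13, 16 and 11 bases, that both transcripts share in the same order towards their 3′ ends. The Neat1-201 bases printed reach its annotated end, whereas annotated Malat1-201 runs on to base 6983.
Malat1-201, bases 6593 to 6706: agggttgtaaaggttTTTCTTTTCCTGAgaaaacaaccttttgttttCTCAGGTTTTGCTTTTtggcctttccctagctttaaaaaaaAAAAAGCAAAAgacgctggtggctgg
Neat1-201, bases 20667 to 20771: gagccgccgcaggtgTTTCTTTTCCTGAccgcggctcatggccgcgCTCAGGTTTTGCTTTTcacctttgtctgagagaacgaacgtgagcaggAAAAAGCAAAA
The 3 stretches in this order within 150 bases, on the transcript strand, were found in 2 of 141767 transcripts (0.00141%), the 2 printed here. The short Neat1 transcript is instead cleaved and polyadenylated, and its last bases hold the signal AATAAA, here in capitals.
Neat1-202, bases 2945 to 3004: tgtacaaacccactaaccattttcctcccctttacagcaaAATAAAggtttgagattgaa
Runs of 10 or more adenines, to which an oligo(dT) primer can bind, were present in 7.18% of all transcripts. Malat1-201 held 1 such run of 12, which begins at base 6674 and runs into the last of the shared stretches, and both Gm31243 transcripts ended in a run of 17, in capitals below. Among the other members, 2 Srsf5 transcripts and 1 Nol4l transcript, none of them coding for protein, held a run, and those of Neat1, Gm26825, Hnrnph1, Ddx5, Rsrp1 and Ccnt2 held none.
Gm31243-201, bases 573 to 632: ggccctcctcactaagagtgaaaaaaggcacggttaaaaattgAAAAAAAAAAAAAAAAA

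Levels are UMIs of a gene per 1000000 UMIs (CPM), summed over barcodes, with exact Poisson 95% intervals. These and the binomial intervals of shares and ratios cover counting error only, and no p-value was computed. The assay reads 3′ ends, so levels were not divided by transcript length and are compared between barcodes, not between genes. Together the 10 genes took 6.45% of the UMIs of microglial barcodes. Malat1 alone took 5.74% and the other 9 took 0.711%.

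Malat1 was counted at 57356 CPM in microglial barcodes. By suffix, from 1 to 6, its level was 56755, 64360, 61795, 58587, 49436 and 50528 CPM. Suffixes 5 and 6 were the lowest and suffix 2 the highest. Neat1 was counted at 752 CPM and ran from 611 CPM in suffix 6 to 835 CPM in suffix 1, so that its order over suffixes was not that of Malat1. Gm26825 stood at 50.9 CPM, with suffix 1 (31.1 CPM) below the other suffixes (40.1 to 65.5 CPM). Gm31243 stood at 27.6 CPM (20.5 to 37.0 CPM). Both were therefore sparse, with a UMI in 9.55% and 6.24% of microglial barcodes.

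Among the splicing genes, Ddx5 was counted at 4226 CPM, with a UMI in 95.5% of microglial barcodes. From suffix 1 to 6 its level was 4907, 4396, 5120, 3735, 3540 and 3696 CPM, highest in suffix 3 and lowest in suffix 5. Hnrnph1 was counted at 112 CPM and varied little (102 to 121 CPM). Srsf5 was counted at 1547 CPM (1372 to 1720 CPM) and Rsrp1 at 324 CPM (265 to 358 CPM), with suffix 1 at the bottom for Rsrp1. Ccnt2, at 49.6 CPM, varied least over suffixes after Hnrnph1 (42.5 to 52.7 CPM). Nol4l, at 22.4 CPM, ran from 14.5 CPM in suffix 2 to 43.0 CPM in suffix 3.

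Barcodes outside the microglial limit were classed by the marker genes of other cell types (124 NK, 55 granulocyte, 55 monocyte and 248 choroid plexus barcodes, with 4 counted as both granulocyte and monocyte and 772 that met none of these limits). Malat1 was lower in each of these classes than in microglial barcodes, at 43088 CPM in NK barcodes, 29359 CPM in granulocyte barcodes, 18348 CPM in monocyte barcodes and 1399 CPM (1298 to 1505) in choroid plexus barcodes. Over the 5 suffixes with at least 20 choroid plexus barcodes, its level there ran from 294 to 3261 CPM. NK barcodes numbered at least 20 in 2 suffixes, monocyte barcodes in 1 and granulocyte barcodes in 0. The choroid plexus class was low for the other members too. Its Ddx5 level was 477 CPM, its Srsf5 level 149 CPM, its Neat1 level 25.2 CPM, and 0 UMIs of Gm26825 were counted among its 515495 UMIs. After thinning each barcode to 500 UMIs, Malat1 had a UMI in 24.6% (19.4 to 30.4%) of choroid plexus barcodes and in 99.5% of microglial barcodes, at median depths of 991 and 2404.5 UMIs before thinning. These barcodes also had the highest mitochondrial share of the classes, 3.44% of UMIs against 1.51% in microglial barcodes.

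Rsrp1 went the other way in NK barcodes, at 698 CPM (594 to 814) against 324 CPM (320 to 328) in microglial barcodes. Gm31243 had 0 UMIs in NK, granulocyte and monocyte barcodes, whose intervals reach 16, 49.0 and 16.5 CPM. At its microglial level of 27.6 CPM, the granulocyte class was too shallow to show a difference. Malat1 was 48512 CPM in barcodes with 2 to 3% of UMIs on the 6 microglial genes and 56773 CPM in those with 3 to 4%, on either side of the limit.

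**Figure D1:**
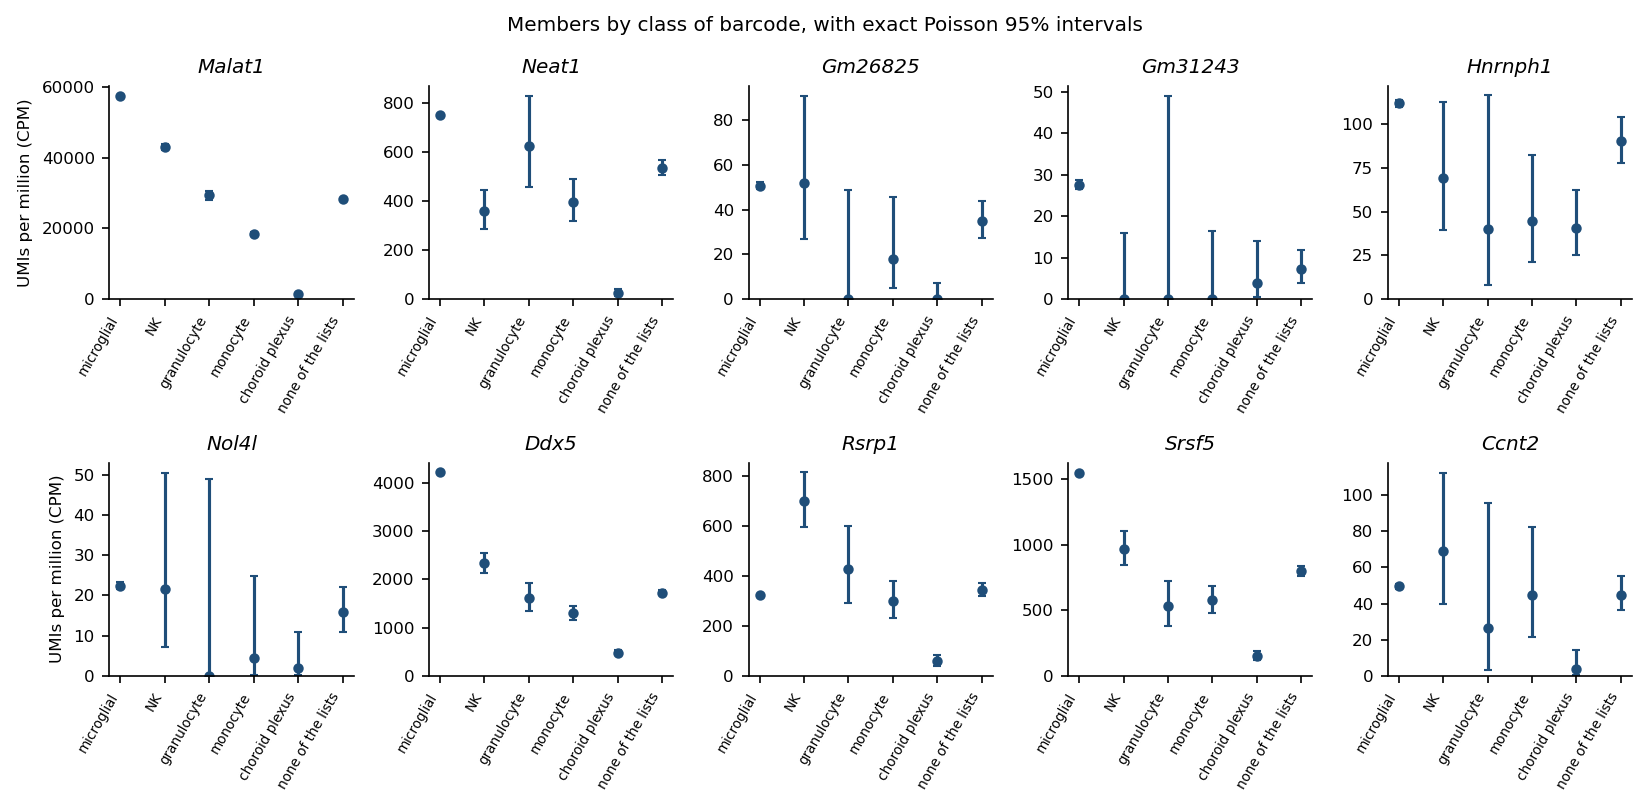
Level of each of the 10 genes (UMIs per 1000000, vertical axes from 0) in the 6 classes of barcode, as points with exact Poisson 95% intervals. Malat1, Ddx5 and Srsf5 stand highest in microglial barcodes and lowest in choroid plexus barcodes, and Rsrp1 stands highest in NK barcodes at 698 CPM.

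Malat1 was not highest in the shallowest barcodes. In microglial barcodes of 500 to under 750 UMIs it was 45422 CPM and in those of 750 to under 1000 UMIs 45103 CPM, it reached its highest level, 65994 CPM, at 2000 to under 3000 UMIs, and it was 55314 CPM in barcodes of 6000 or more. The level at 500 to under 750 UMIs was 0.764 times (0.760 to 0.768) that at 3000 to under 4000 UMIs, and it was lower in 6 of 6 suffixes.

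Ddx5 and Srsf5 went with Malat1, with ratios of 0.628 (0.614 to 0.641) and 0.748 (0.723 to 0.773), lower in all 6 suffixes, as did Hnrnph1, with 0.787 (0.691 to 0.893), lower in 5. Gm31243 had the lowest ratio, 0.232 (0.147 to 0.351), from 23 UMIs in the shallow and 973 UMIs in the deeper barcodes. Ccnt2 was the other way round in 6 of 6 suffixes, at 75.3 CPM in the shallow and 43.2 CPM in the deeper barcodes (ratio 1.74, 1.5 to 2.01). Rsrp1 had a ratio of 1.43 (1.35 to 1.52) and Neat1 one of 1.14 (1.09 to 1.19), each higher in 4 of 6 suffixes. The intervals of Gm26825 (0.791 to 1.15) and Nol4l (0.640 to 1.11) held 1. The 10 genes therefore did not move as a block with depth.

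Over the 2685 genes of at least 50 CPM in microglial barcodes the median ratio was 1.07, and 10.3% of genes were lower and 9.94% higher by 1.5-fold or more. Of the 10 members 7 reached 50 CPM, of which 1 (Ddx5) was lower and 0 were higher by that much. The members were chosen with this comparison known, so nothing is read from that count. Apoe, which the paper lists for both glioma-associated microglia and glioma-associated macrophages, was 30809 CPM in the shallow and 9048 CPM in the deeper barcodes. The strata therefore also differed in it, and the part of macrophages in this was not tested. In the barcodes with an Apoe share below the median, the Malat1 ratio was 0.846, that of Gm26825 was 1.24 and that of Nol4l was 1.35.

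**Figure D2:**
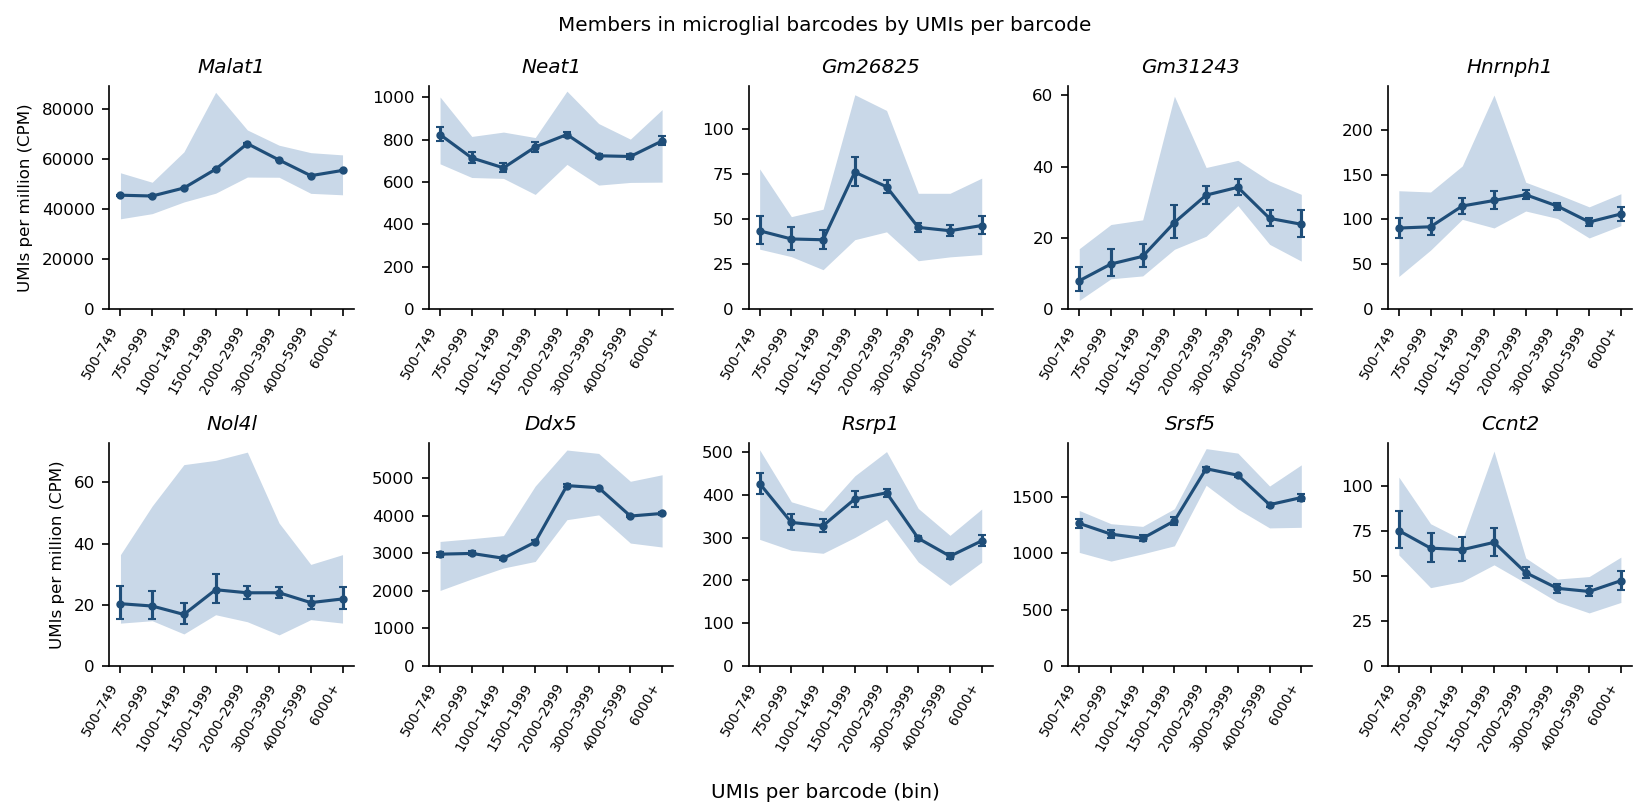
Level of each gene (UMIs per 1000000, vertical axes from 0) in microglial barcodes by bins of UMIs per barcode. Points are pooled levels with exact Poisson 95% intervals and the shaded band spans the lowest and highest suffix. Malat1, Ddx5 and Srsf5 are highest at 2000 to under 3000 UMIs, and Ccnt2 is at its highest in the shallowest bin, at 75.3 CPM.

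With the mitochondrial share, a measure used to choose them, the members moved more uniformly. Malat1 was 65172 CPM in barcodes with under 1% of UMIs on mitochondrial genes, 56763 CPM at 1 to 2%, 49104 CPM at 2 to 3%, 43027 CPM at 3 to 5%, 36953 CPM at 5 to 10% and 22210 CPM at 10% or more. Each step down was wider than the counting intervals. Between under 1% and 3 to 5% the ratio was 1.51 (1.51 to 1.52), and it was above 1 in 6 of 6 suffixes (1.28 to 1.56). Since all shares of a barcode sum to 1, some of any inverse relation is arithmetic, and with mitochondrial UMIs left out of the totals the ratio was 1.47.

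Srsf5 was lower at each step too, going from 1655 to 1592, 1392, 1095, 744 and 325 CPM, and Ddx5 from 4545 to 4424, 3596, 2738, 2088 and 788 CPM. Their ratios of under 1% to 3 to 5% were 1.51 (1.47 to 1.56) and 1.66 (1.63 to 1.69). Rsrp1 differed more, at 445 against 211 CPM (ratio 2.11, 1.98 to 2.25), as did Gm26825, at 80.8 against 32.4 CPM (ratio 2.49, 2.12 to 2.95). Gm26825 was already at 38.5 CPM at 1 to 2%, so most of its difference lay in 1 step. Gm31243 had a ratio of 2.34 (1.82 to 3.05), Hnrnph1 of 1.37 (1.24 to 1.51) and Neat1 of 1.23 (1.19 to 1.28). All of these were above 1 in 6 of 6 suffixes. Nol4l, with 1.35 (1.09 to 1.68), was above 1 in 5 suffixes, and Ccnt2, with 1.13 (0.994 to 1.30), in 4.

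Over all 2685 genes the median ratio was 1.05 and 58.5% of ratios were above 1, with 7.93% of genes higher and 7.86% lower by 1.5-fold. Of the 7 members tested 5 were higher by 1.5-fold and 0 were lower, in the contrast used to choose them. With mitochondrial UMIs left out of the totals 3 were (Gm26825, Ddx5 and Rsrp1), and with an Apoe share below the median 2 were (Gm26825 and Rsrp1). The share of all genes past 1.5-fold was not computed in these settings, so nothing is read from the counts. Barcodes with little mitochondrial RNA were also deeper (median 2336.5 against 1454 UMIs), and held less Apoe (11415 against 31170 CPM) and less ribosomal protein transcript (4.02 against 7.13% of UMIs). Within the 8 UMI bins taken one at a time, Malat1, Ddx5, Srsf5 and Rsrp1 had ratios with intervals above 1 in 8 of 8, Neat1 in 7 and Gm26825 in 6. Gm31243 did so in 4 bins, Hnrnph1 in 3, Ccnt2 in 1 and Nol4l in 0, and for Gm31243 and Hnrnph1 the interval lay below 1 in 1 bin. The members were chosen with this contrast known, and the share over all genes was not computed within bins. Nothing is therefore read from these counts either. In the barcodes with an Apoe share below the median, the Hnrnph1 ratio was 1.01 and the Ccnt2 ratio 0.939.

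**Figure D3:**
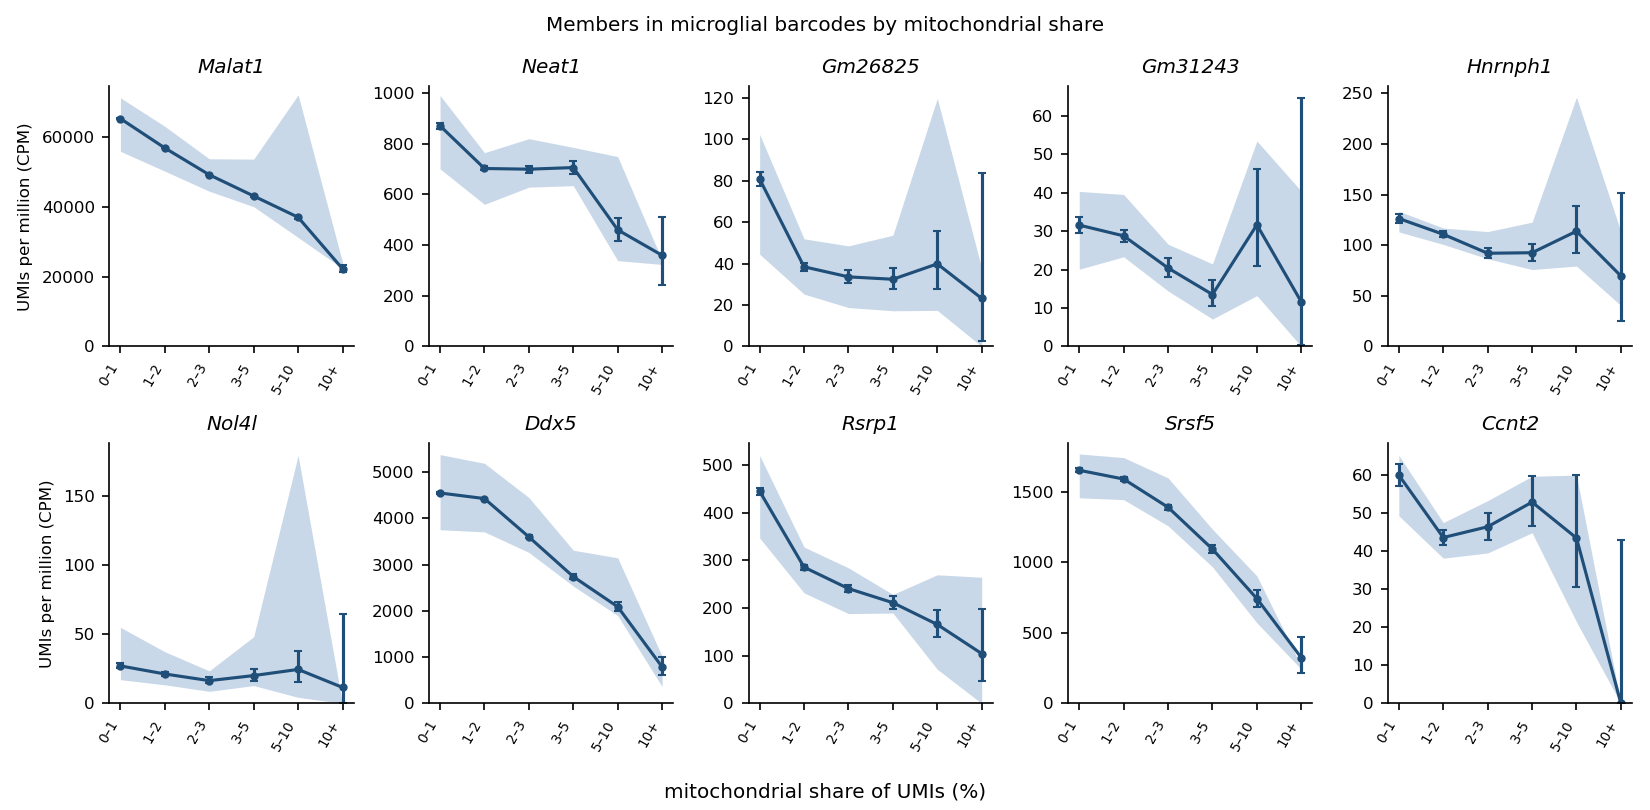
Level of each gene (UMIs per 1000000, vertical axes from 0) in microglial barcodes by mitochondrial share of UMIs. Points are pooled levels with exact Poisson 95% intervals and bands span the suffixes with at least 20 barcodes, which were 2 in the last stratum. Malat1, Ddx5 and Srsf5 are lower at every step, whereas most of the difference in Gm26825 lies between 80.8 and 38.5 CPM.

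To see which other genes went with Malat1 at a fixed depth, microglial barcodes were ranked by their Malat1 share within each suffix and UMI bin, and the top 20% was set against the bottom 20% (7632 barcodes each). The median Malat1 share was 8.33% in the top and 2.89% in the bottom group. Ratios were taken over UMIs without Malat1 and mitochondrial genes. The other 9 members were all higher in the top group. The ratios were 2.20 (1.92 to 2.52) for Gm31243, 1.85 (1.68 to 2.03) for Gm26825, 1.70 (1.47 to 1.97) for Nol4l, 1.58 (1.48 to 1.68) for Hnrnph1 and 1.53 (1.51 to 1.54) for Ddx5. Srsf5 had 1.44 (1.42 to 1.47), Neat1 1.43 (1.40 to 1.47), Rsrp1 1.33 (1.28 to 1.38) and Ccnt2 1.10 (1.00 to 1.21). All were higher in 6 of 6 suffixes except Ccnt2, which was higher in 5. Across the 5 groups of 20% Neat1 went from 684 to 737, 796, 871 and 981 UMIs per 1000000, and Ddx5 from 3530 to 4312, 4654, 4961 and 5388.

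Over the 2685 genes the median ratio was 1.02, and 64 genes (2.38%) were higher and 56 (2.09%) lower by 1.5-fold. Malat1 is among the 64, with a ratio of 2.84 that follows from the ranking. It is also among the genes tested in the settings below. Of the 6 members of at least 50 CPM other than Malat1, which set the ranking, 3 were higher by that much (Gm26825, Hnrnph1 and Ddx5). The members were chosen with the mitochondrial contrast known, so nothing is read from that count. With an Apoe share below the median the counts were 14 higher and 24 lower, and the ratios of the 9 members lay between 1.10 and 1.5. The bottom group held more transcript of other cell types' markers, with 0.0895 against 0.00245% of UMIs for granulocytes, 0.0505 against 0.0143% for choroid plexus and 0.0130 against 0.00497% for NK cells. In the 31664 microglial barcodes with no UMI of these markers or of the monocyte markers, 70 genes were higher and 47 lower, and the ratios of the members were 1.09 for Ccnt2 and 1.35 to 2.25 for the other 8.

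The lists of other splicing and transcription genes had medians above that of all genes. All lists here and in the next paragraph were chosen with earlier results of these data known. Their medians and counts are therefore a description. Of all 2685 genes tested, 53.6% had a ratio above 1. Of 26 serine/arginine-rich proteins and partners, 21 reached 50 CPM, all 21 had a ratio above 1 and the median was 1.24. The highest of them were Tra2a (1.61), the kinase Clk1 (1.61), which phosphorylates serine/arginine-rich proteins, and Tra2b (1.57). Of 24 hnRNPs and paraspeckle proteins tested, 18 were above 1 with a median of 1.10 and 0 passed 1.5-fold, among them Sfpq (1.48). All 6 elongation genes tested were above 1 (median 1.30), with Ccnl1, a cyclin that acts in splicing, at 1.52. Of 11 other nuclear RNAs listed, 7 were in the matrix and 2 reached 50 CPM. Of these, Xist, the RNA that coats the inactive X chromosome, had a ratio of 1.27 (1.24 to 1.29), and the other had 1.17.

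Ribosomal protein, abundant cytosolic and mitochondrial transcripts had medians below 1. Of 80 ribosomal protein genes tested 1 was above 1, and the median was 0.755. Of 10 abundant cytosolic mRNAs 2 were above 1 (median 0.839), and Fth1, the ferritin heavy chain, had the lowest ratio, 0.603. The 10 mitochondrial genes of at least 50 CPM were all lower (median 0.685). Immediate early and heat shock genes, whose transcripts are made and lost within a short time, were the list with the highest median, 1.39, and 7 of 23 passed 1.5-fold, including Jun (1.61) and Btg2 (1.71). The 6 microglial genes of the limit itself had a median of 0.876, and 8 microglial genes outside it one of 1.18.

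By gene, the highest ratios outside the members were those of Dnajb1 (2.06), a heat shock co-chaperone, Slc15a3 (2.03), Hist4h4 (2.00), Txnip (1.95), Jund (1.91), Sox4 (1.82), Dnajb4 (1.80), Arrdc3 (1.78), Fchsd2 (1.78) and Impact (1.77). The lowest were those of the neutrophil genes S100a8 (0.0316) and S100a9 (0.0429), followed by Spp1 (0.159), Ifi27l2a (0.222), Cxcl2 (0.239), Lgals1 (0.299), Ttr (0.299), Ms4a6c (0.344), Lyz2 (0.347) and Apoe (0.350). Ttr and the S100a genes are markers of cell types other than microglia, and Spp1, Lyz2 and Apoe are genes of activated phagocytes.

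Single barcodes were then sorted by their Malat1 share. The median microglial barcode of 3000 to under 4000 UMIs held 5.82% of its UMIs on Malat1, and the 5% and 95% points of such barcodes were 3.16 and 9.23%. At 1000 to under 1500 UMIs the median was lower (4.07%) and the upper tail longer, with a 95% point of 11% and a highest value of 29.7%. At 5% or more of UMIs on Malat1 there were 20521 barcodes, 53.6% of all microglial barcodes, and 8539 of them (22.3% of microglial barcodes, 21.9 to 22.7%) also had under 1% on mitochondrial genes. By suffix this share ran from 14.6% to 29.3%. That limit lies close to the middle of the distribution, so these are not unusual barcodes. At 10% or more there were 1636 barcodes (4.28%), of which 849 had under 1% mitochondrial UMIs. At 15% there were 166, at 20% there were 41 (0.107%, 0.0769 to 0.145%), at 30% there was 1 and at 50% there were 0, which allows a share of up to 0.00784% (3 counts of the total). All 41 barcodes at 20% or more had under 2000 UMIs. The highest Malat1 share of any microglial barcode was 31.3%. By this measure 0 microglial barcodes had Malat1 for most of their UMIs, although a share of 3′ UMI counts does not give the share of all RNA that is nuclear. High shares were more frequent outside the microglial limit, which itself rests on messenger RNA. Of the 1250 other barcodes 28 (2.24%, 1.49 to 3.22%) had 20% or more on Malat1, 5 had 30% or more and 0 had 50% or more. In barcodes with 1 to 2% of UMIs on the 6 microglial genes the 95% point of the Malat1 share was 21.4%.

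The 169 microglial barcodes with no mitochondrial UMI did not have Malat1 for most of their UMIs either. They held 5.97% of UMIs on Malat1, with a highest value of 14.5%, and 3.95% on ribosomal protein genes, against 6.52% and 4.02% in all barcodes under 1%. Their median depth was 763 UMIs against 2336.5 in all barcodes under 1%, so this comparison was not matched on depth. Barcodes under 1% held 48162 CPM of Malat1 at 500 to under 750 UMIs and 50440 CPM at 750 to under 1000. Both levels are lower than 5.97% of UMIs.

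**Figure D4:**
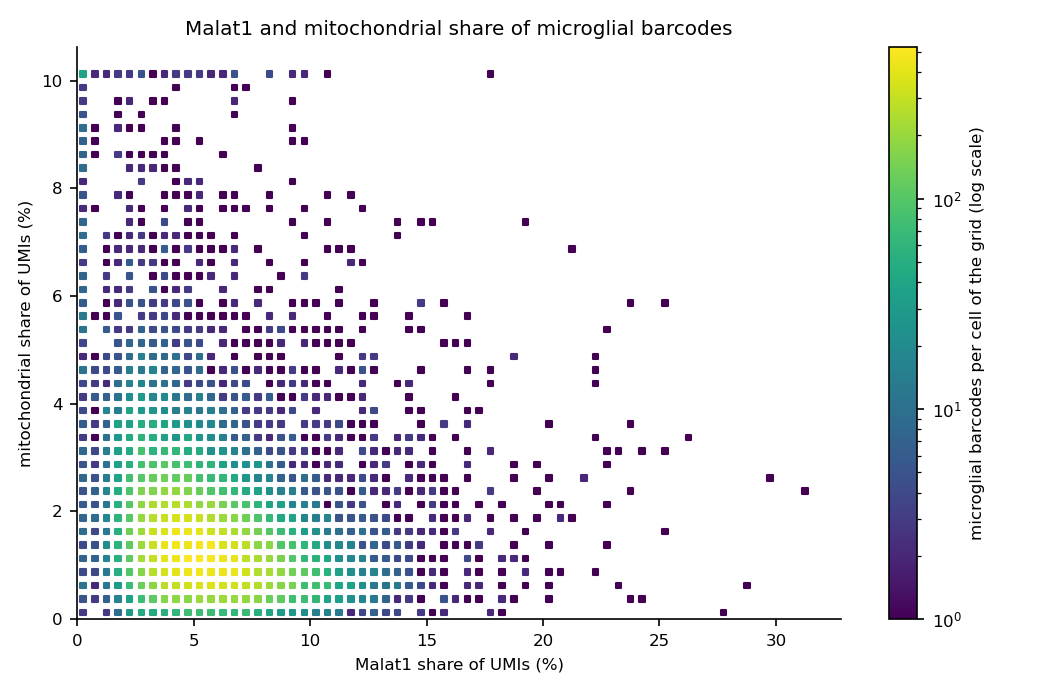
Microglial barcodes by Malat1 share (horizontal axis, percent of UMIs) and mitochondrial share (vertical axis, percent of UMIs, with all values of 10% or more in the top row), coloured by the number of barcodes per cell of the grid on a log scale. Barcodes become fewer towards the highest Malat1 share of 31.3%, and columns of the grid without any barcode occur only above 24%. A column of barcodes near 0 on Malat1 runs up the left edge to the highest mitochondrial shares.

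The barcodes at both ends of the Malat1 share were then set against other microglial barcodes of the same suffix and UMI bin, with Malat1 left out of the totals. These limits were chosen after the counts had been seen. In the 166 barcodes with Malat1 at 15% or more (median 1197.5 UMIs), Xist, which stays in the nucleus, was higher and ribosomal protein and abundant cytosolic mRNAs were lower. Xist stood at 3457 against 1605 CPM (ratio 2.15, 1.98 to 2.34) and was higher in 6 of 6 suffixes. Ribosomal protein transcripts took 2.19 against 4.45% of UMIs (ratio 0.491, 0.475 to 0.507), lower in 6 of 6 suffixes, and the 10 abundant cytosolic mRNAs took 2.00 against 3.51%. Other messenger RNAs were higher, namely immediate early and heat shock transcripts, at 10.6 against 6.57% (ratio 1.61, 1.58 to 1.63) in 6 of 6 suffixes, and microglial genes outside the limit (ratio 1.16) in 5. The microglial genes of the limit were at 7.13 against 8.67% (ratio 0.822, 0.808 to 0.837), higher in 0 of 6 suffixes.

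Among the members at this end, Gm31243 had 21 UMIs where the matched level gives 3.38 (ratio 6.20, 3.84 to 9.48) and Hnrnph1 had 99 where it gives 20.9 (ratio 4.75, 3.86 to 5.78). These were far above the ratios of Ddx5 (1.5, 1.40 to 1.60), Srsf5 (1.41, 1.26 to 1.58) and Neat1 (1.35, 1.15 to 1.57). Nol4l had a ratio of 2.68 (1.39 to 4.69) from 12 UMIs. The intervals of Gm26825, Rsrp1 and Ccnt2 held 1. Mitochondrial genes were not lower here but higher, at 2.51 against 1.87% of UMIs (ratio 1.34, 1.30 to 1.38), in 5 of 6 suffixes. Of the 166 barcodes 46 had under 1% mitochondrial UMIs. P2ry12 or Tmem119 was present in 165 of them, and their Apoe level was 7438 against 30941 CPM. At 20% or more, where 21 of the 41 barcodes came from 1 suffix, the differences were wider, with ribosomal protein transcripts at 0.449 times, Xist at 3.06 times and mitochondrial genes at 1.85 times the matched level.

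The other end was further from the rest. In 176 microglial barcodes (0.460%, 0.395 to 0.533%) no Malat1 UMI was counted, at depths of 504 to 4475 UMIs (median 900). They occurred in all 6 suffixes, with 6 to 46 in each. Neat1 had 2 UMIs where the matched level gives 140 (ratio 0.0143, 0.00173 to 0.0515), and Xist had 1 where it gives 288 (ratio 0.00348, 8.80e-05 to 0.0194). Tug1, also listed as a nuclear RNA, had 2 UMIs where the matched level gives 6.05 (ratio 0.331, 0.0400 to 1.19). Ddx5 was at 353 against 3302 CPM (ratio 0.107), Srsf5 at 128 against 1329 CPM (0.0966), Rsrp1 at 37.4 against 384 CPM (0.0974) and Hnrnph1 at 32.1 against 113 CPM (0.283, 0.104 to 0.617). Ccnt2 had 0 UMIs where the matched level gives 13.1, and Gm26825 0 where it gives 9.18. Gm31243 and Nol4l, also at 0, had matched levels of 3.15 and 4.05 UMIs, close to what a count of 0 allows.

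Immediate early and heat shock transcripts were low as well, at 0.214 against 6.63% of UMIs (ratio 0.0323, 0.0292 to 0.0356). The elongation genes stood at 0.0897 and the serine/arginine-rich list at 0.178 times the matched level, whereas hnRNPs and paraspeckle proteins stood at 0.609. Ribosomal protein transcripts were higher, at 12.6 against 4.47% (ratio 2.82, 2.78 to 2.85), the abundant cytosolic mRNAs at 6.89 against 3.50%, and mitochondrial genes at 5.95 against 1.83% (ratio 3.26, 3.20 to 3.32). Each of these held in 6 of 6 suffixes. Of the 176 barcodes 101 had 5% or more mitochondrial UMIs and so fall outside the study's own limit.

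Other cells were part of this set. Choroid plexus markers took 0.303 against 0.0193% of UMIs and 98 of the 176 barcodes had a P2ry12 or Tmem119 UMI. Without any barcode that held a UMI of the NK, granulocyte, monocyte or choroid plexus markers, or that lacked P2ry12 and Tmem119, 82 barcodes of all 6 suffixes remained. In these the microglial genes of the limit were at 9.24 against 8.58% of UMIs. Choosing barcodes by P2ry12 and Tmem119, which belong to the limit, favours a higher share, so nothing is read from it. Microglial genes outside the limit were at 1.68 against 2.83% (ratio 0.592, 0.562 to 0.623), higher in 0 of 6 suffixes. Neat1 had 0 UMIs where the matched level gives 65.3, Xist 0 where it gives 140, and Ddx5 30 where it gives 290. Ribosomal protein transcripts were at 2.86 times, mitochondrial genes at 3.12 times and immediate early and heat shock transcripts at 0.0303 times the matched level. The abundant cytosolic mRNAs were at 1.81 times (1.76 to 1.86) in these, against 1.96 times (1.93 to 2.00) in all 176. Border macrophage markers had 7 UMIs where the matched level gives 0.675, and Apoe was at 78081 against 31576 CPM, and the part of either in the result was not tested.

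**Figure D5:**
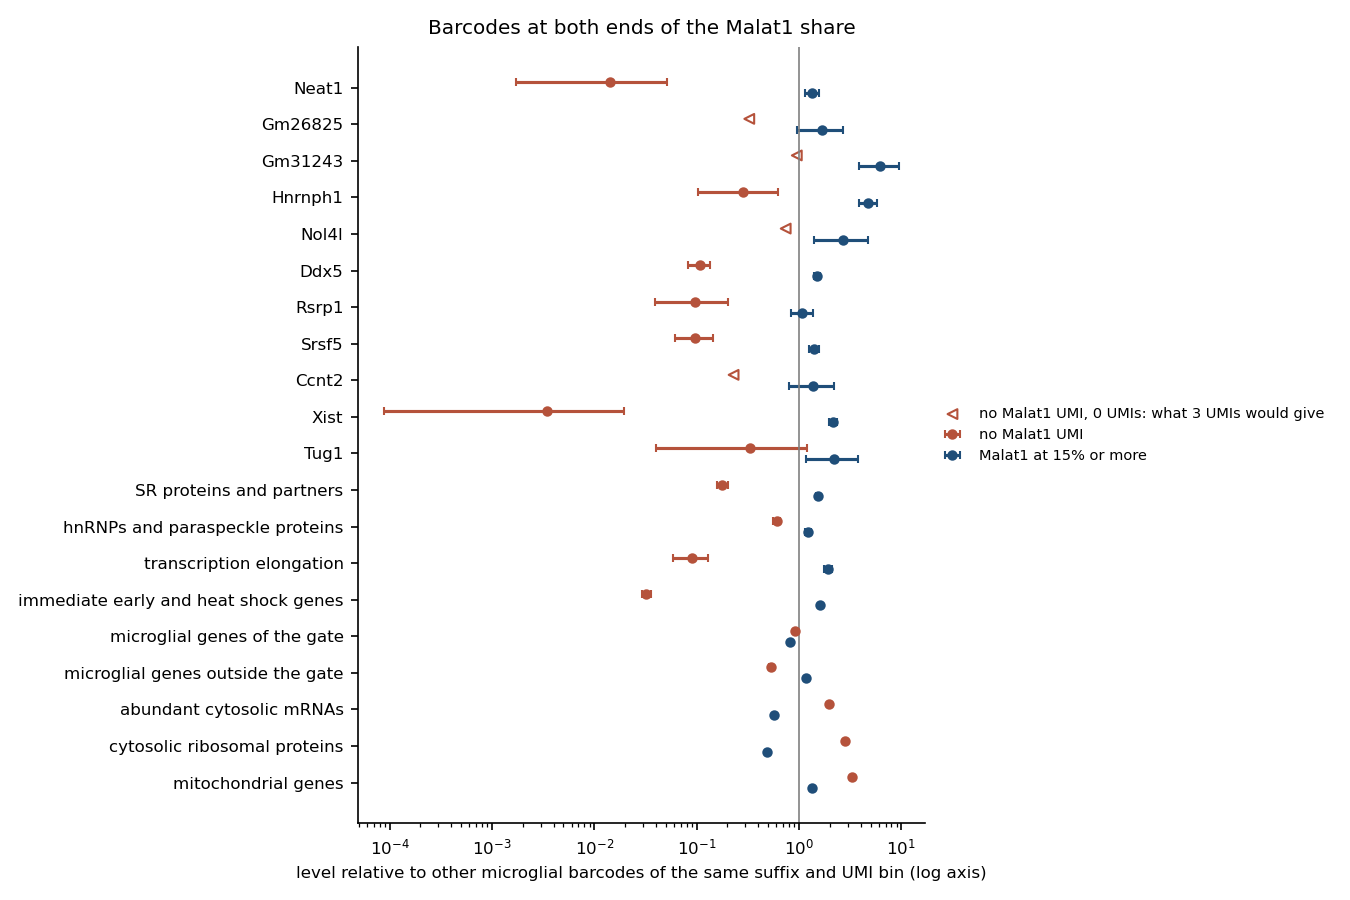
Level of 9 members, Xist, Tug1 and the gene lists in the 176 microglial barcodes without a Malat1 UMI and the 166 with Malat1 at 15% or more, each relative to other microglial barcodes of the same suffix and UMI bin (log axis, 1 means equal). Bars are exact Poisson 95% intervals and open triangles mark what 3 UMIs would give where 0 were counted. Nuclear and immediate early transcripts lie left of 1 without Malat1, although the interval of Tug1 (0.0400 to 1.19) holds 1. Ribosomal protein transcripts lie at 2.82 and 0.491, and mitochondrial genes lie right of 1 in both sets.

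The mitochondrial share thus differed from ribosomal protein transcripts, in that it was higher than matched at both ends of the Malat1 share, at 1.34 and 3.26 times. Between 10% and 20% or more on Malat1 the pooled mitochondrial share went from 1.20 to 2.61% while ribosomal protein transcripts went from 3.46 to 1.48%. These pooled shares kept Malat1 in the totals and were not matched on depth. Their median depths were 2161 and 935 UMIs, so nothing is read from the change between them. With matching and without Malat1 in the totals, barcodes at 20% or more held mitochondrial genes at 1.85 times the matched level. By the matched ratios, barcodes that leaned most to Malat1 were therefore not the ones with the least mitochondrial RNA.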

How the data were processed

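The authors aligned reads of 10× v2 libraries to mm10 with STAR in Cell Ranger 3.1, combined all 6 by Cell Ranger's aggregate pipeline, and analysed them in Seurat 3.1.5. The values deposited by the authors are raw UMI counts in 1 matrix. The paper's metrics list intronic and antisense reads apart from reads mapped to the transcriptome, whose share was below the exonic share in every library. Intronic reads of unspliced nuclear RNA may therefore be missing from the counts, which was not tested. The annotation release, the use of strand or introns in counting and any depth equalization are not stated in the sources used here. The libraries were sequenced in 3 batches, which were not assigned to suffixes here. Suffixes were not assigned to mice either, since neither the sample labels nor the barcode names do so, and matching by order or by values was not used. The matrix was therefore treated as 1 pooled sample, with no test. Per-sample columns left out numbered 0.

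Barcodes with over 200 and at most 2500 genes were kept, the latter being the study's limit. No doublet caller was run. The study's limit of 5% mitochondrial genes was applied only as an alternative. Levels are UMIs per 1000000 with exact Poisson 95% intervals, ratios have exact binomial intervals and shares Clopper-Pearson intervals. Other classes needed over 1% (NK, monocyte, border macrophage) or over 3% (granulocyte, choroid plexus) of UMIs on their markers. The border macrophage class held 0 barcodes, and 200 barcodes lay within 0.5 to 1.5 times the monocyte limit. Groups by Malat1 share were drawn in suffix and UMI bins of at least 50 barcodes. Genes of at least 50 CPM entered counts past 1.5-fold. Shares of barcodes with a UMI of a gene were taken at full depth. Among these shares, only those of Malat1 in choroid plexus and microglial barcodes were taken after thinning to 500 UMIs. Genes named were the members, the 10 highest and 10 lowest ratios outside them with the same side of 1 in 6 suffixes, and up to 5 of each list. Members and lists were chosen with earlier results of these data known. Of 31053 genes, 30934 were found in GENCODE M21. Of the listed nuclear RNAs, 4 were not analysed here.

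Python 3.11.15, numpy 2.4.6, scipy 1.17.1, pandas 2.3.3 and matplotlib 3.10.9 were used. The ratios by Malat1 share were tested on simulated data of 2685 genes in 6000 barcodes. Of 200 changed genes 100% passed 1.5-fold in the right direction, and 95.3% of intervals held the true ratio. Simulated barcodes were drawn from fixed profiles with sampling error only, and each changed gene was set further apart than 1.5-fold. The simulation therefore checked the calculation, not how well the intervals cover the truth in the real barcodes. Alternatives covered the microglial limit, filters, bins, thinning, limits and leaving out each suffix.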

Additional observations from a re-analysis of the deposited data

How the results depend on the processing

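No paired analysis was possible because suffixes were not assigned to mice, whose numbers neither the sample labels nor the barcode names tie to them, and the results come from no test. The Malat1 ratio of shallow to deeper barcodes (0.764) was 0.768 and 0.751 with microglial limits of 1% and 5%, 0.759 after thinning, 0.757 without barcodes holding other cell types' markers, 0.846 with an Apoe share below the median and 0.743 to 0.787 leaving out each suffix. Its ratio of low to higher mitochondrial share (1.51) was 1.52 with either microglial limit, 1.47 without mitochondrial UMIs in the totals, 1.36 with low Apoe and 1.48 to 1.52 leaving out each suffix. The 22.3% of barcodes with Malat1 at 5% or more and under 1% mitochondrial UMIs became 33.0% at 2% Malat1, 2.22% at 10%, 0.0261% at 20%, 46.1% at under 2% mitochondrial UMIs, 20.8% after thinning and 19.9 to 23.9% leaving out each suffix. The 120 genes past 1.5-fold by Malat1 share became 18 with barcodes divided at the median (3 higher, 15 lower), 228 from 20 CPM (117 higher, 111 lower), 740 at a smaller fold (407 higher, 333 lower), 38 with low Apoe and 104 to 139 leaving out each suffix. Malat1, which set the ranking, was among the genes tested in each of these settings. Ribosomal protein transcripts without a Malat1 UMI (2.82 times) stood at 2.74 with a limit of 5%, 2.96 with under 5% mitochondrial UMIs, 4.02 with low Apoe, 2.86 in the stricter set and 2.67 to 2.90 leaving out each suffix. At 15% Malat1 or more (0.491 times) they stood at 0.529 with a limit of 5%, 0.540 with low Apoe and 0.441 to 0.532 leaving out each suffix. No ratio of these turned to the other side of 1 in the settings tried, whereas the balance of genes turned from 64 higher and 56 lower to more lower than higher with barcodes divided at the median and with low Apoe (14 higher, 24 lower). Of the values of the other 9 members, 350 stayed within the interval of the value reported and 55 moved out of it. By Malat1 share the 9 were above 1 in all 18 settings, and by mitochondrial share in all 14 except Ccnt2, which was above 1 in 13 (lowest 0.939). By depth, Gm26825 was above 1 in 3 and Nol4l in 1 of 16 settings. The settings in these counts of values above 1 include that of the values reported. Those from 20 CPM and at a smaller fold alter only which genes are counted. Member ratios by Malat1 share could not differ there, which also holds for their values among the 350. Of all 2685 genes, 53.6% were above 1 by Malat1 share, 58.5% by mitochondrial share and 58.7% by depth as first reported. These shares were not computed in the other settings, and the members were chosen with the contrasts by depth and mitochondrial share known. Nothing is therefore read from the counts of members. The settings on Apoe, markers and 20% Malat1, and both sets at the ends, were chosen after seeing the data. The cause of these shifts was not tested. Intervals do not cover the spread between mice.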
